A study of Mus musculus with 5 samples.

Results

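The genes of the WNT ligands, their Frizzled and LRP receptors and 2 families of secreted antagonists were followed in the mouse pituitary at e12.5. The members were taken by gene symbol from the deposited table of all genes: every Wnt gene listed, Fzd1 to Fzd10, Lrp5, Lrp6, the Sfrp genes and the Dkk genes, with the longest region where a symbol had more than 1. This gave 38 of 20097 gene symbols, made up of 18 ligands, 12 receptors and 8 antagonists. The 3 control libraries (9, 10 and 12) came from embryos with the genotype Itgb1 f/f, and the 2 knockout libraries (13 and 16) from littermates that were Itgb1 f/f; Pitx1-cre, all on the strain background B6;129. Both groups therefore carried floxed Itgb1, and only the knockouts carried the Cre transgene, whose Pitx1 promoter is active in oral ectoderm and in the pituitary that forms from it. Itgb1 encodes integrin beta 1, and cells outside the Pitx1 domain keep the gene. The label of all samples is epithelial pituitary cells. In bulk RNA, fewer cells of a type and less RNA per cell cannot be told apart.

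WNT proteins are secreted, lipid-modified signals that bind a Frizzled receptor at the cell surface. With an LRP5 or LRP6 co-receptor they stabilise beta-catenin, which enters the nucleus and acts with TCF and LEF transcription factors. Frizzleds also signal without beta-catenin, through the planar polarity proteins. SFRP proteins bind WNTs outside the cell, and DKK1, DKK2 and DKK4 act on LRP5 and LRP6. In the forming pituitary, WNT signals come both from the pouch itself and from the tissue around it.

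Levels are given as tags in every 10000000 of a library, counted over a region that spans introns and exons. Over the listed genes the libraries held between 4480809 and 6143263 recovered reads. Library 16 stood apart: 392 odorant and pheromone receptor genes (symbols in Olfr and Vmn), not known to act in the pituitary, held 1.50 tags per kilobase there, against 0.16 to 0.39 in the controls and 0.47 in library 13. These densities are used below as the background of each library. Level followed region length across genes with a Spearman rho of 0.94 in library 16 and 0.68 to 0.76 in the other 4 (across genes, which are not independent). The median gene was 0.80 higher than the control mean in library 13 and 1.28 higher in library 16 on the log2 scale, so relative changes below have the median gene of the same fit or library taken off. Itgb1 itself (mm9 chromosome 8, 131210354 to 131257479) was at 272.73, 426.36 and 430.91 in controls 9, 10 and 12, at 446.36 in library 13 and at 186.36 in library 16. With background subtracted and the libraries scaled by TMM factors (a trimmed mean of ratios between libraries) it was at 403.67, 374.12 and 450.53 in the controls, then 281.48 and 115.5, so that library 13 turned from above to below every control. In the fit of the deposited values Itgb1 did not pass (limma, adjusted p = 0.621), with a relative log2 change of -1.32. The check of the label thus depends on the scale for library 13, which is called a knockout below as labelled. All 8 pituitary markers, such as Pitx1 and Lhx3, had tags in every library, with a summed level of 413.64 to 637.26 in the controls, 1244.55 in knockout 13 and 516.36 in knockout 16. Hypothalamic markers were present too, at 430.91 to 710.01 in the controls, 392.72 in knockout 13 and 245.46 in knockout 16 (at most 1 of the 7 genes was at 0 in a library), and so were mesenchymal markers, at 462.73 to 813.63, 865.47 and 831.81.

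In the control pituitaries the receptors stood clear of background and most ligands did not. A member is said to be above background in a library where its level exceeded 3 times that of receptor-gene background of the same length, a description and not a test. The level covers the whole region, introns included, so the ratio also depends on gene structure. Exons of the GENCODE M21 transcript come to between 5.5% (Wnt2) and 74.9% (Wnt1) of the ligand regions, while 8 of the 10 Frizzled genes have 1 or 2 exons. The share of all genes above background was not counted. All 12 receptors, 2 of the 18 ligands (Wnt4 and Wnt5a) and 3 of the 8 antagonists (Dkk2, Sfrp1 and Sfrp2) were above background in all 3 controls. The median receptor lay at 17.99, 15.42 and 28.01 times background in controls 9, 10 and 12, against 2.70, 2.54 and 2.11 times for the median ligand. At the other end, 7 ligands (Wnt2, Wnt3, Wnt3a, Wnt8b, Wnt9b, Wnt10b and Wnt16) and 2 antagonists (Dkk3 and Sfrp4) were above background in no control.

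**Figure D1:**
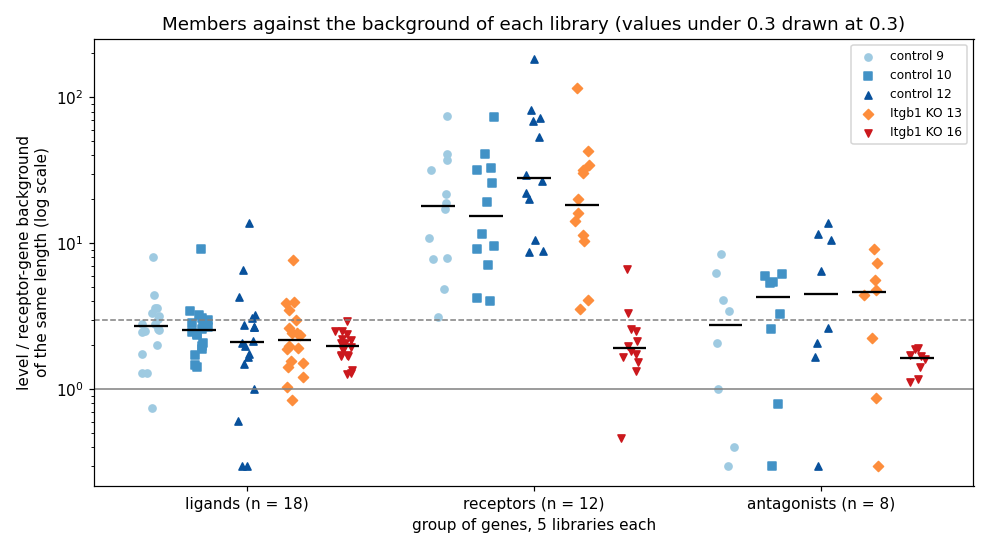
Level of each member divided by the level that Olfr and Vmn receptor genes of the same length would have in that library, on a log axis, for 18 ligands, 12 receptors and 8 antagonists in 5 libraries; black bars are medians, the solid line is a ratio of 1 and the dashed line a ratio of 3. Receptors lie between 3.15 and 182.70 in the controls and between 0.46 and 6.66 in library 16, where ligands, receptors and antagonists have medians of 1.98, 1.91 and 1.64.

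No member passed the test between genotypes. In limma, 0 of 38 members had an adjusted p under 0.05, as did 0 of all 19313 genes tested (0.0%). At an unadjusted p under 0.05 there were 14 members, all higher in the knockouts, namely 12 ligands and 2 antagonists (29.2% of all genes were higher at that level and 0.0207% lower). That count was 2 with TMM factors, where 383 of 19200 genes had such a p. It was 2 without control 9 (2055 of 19354 genes), 15 without control 10 (5734 of 19317) and 0 without control 12 (935 of 19375). The count tests on recovered reads also called 0 members. In edgeR's quasi-likelihood test 0 genes of 15623 were called, and 0 members were among the 457 genes at an unadjusted p under 0.05. DESeq2 called 25 genes of 19412, all lower (0.129%), and had 1 member among 354 genes at an unadjusted p under 0.05. None of the 38 members is in the authors' deposited table of changes, which lists 1140 names (5.67% of the symbols). With 3 libraries against 2, an exact permutation test of a single gene cannot go below p = 0.1, 2-sided, and none was used.

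The 3 groups of members had different median changes in the fit of all libraries, and in library 13 alone they differed little. The median relative log2 change was 0.48 for the ligands, -0.88 for the receptors and 0.08 for the antagonists, where the median over all genes is 0 by construction. Of the ligands 14 lay above the median gene and 4 below it, and of the receptors 1 lay above and 11 below. In library 13 alone the group medians were -0.05, 0.02 and 0.09. In library 16 alone they were 0.94, -2.06 and 0.22. Without library 16 the medians for ligands and receptors were -0.05 and 0.01.

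**Figure D2:**
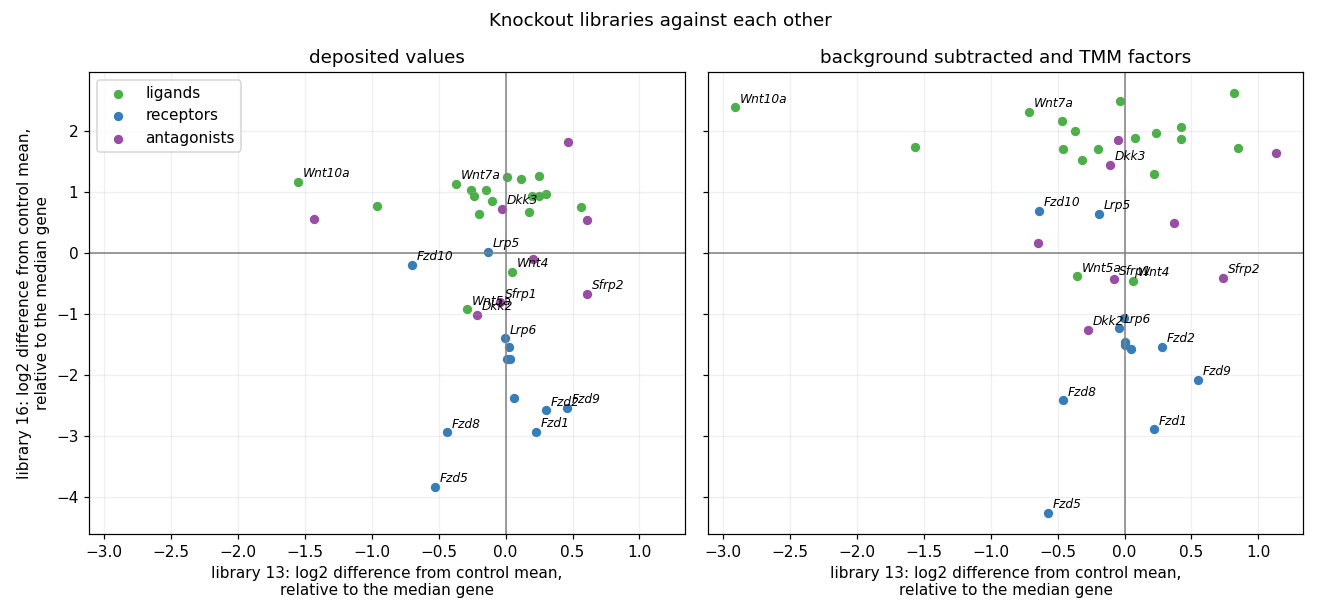
Each point is 1 member, with its log2 difference from the control mean in library 13 (x) and library 16 (y), both relative to the median gene, on deposited values (left) and after background subtraction and TMM scaling (right). All 10 Frizzled genes lie below 0 on the y axis in the left panel and all but Fzd10 in the right, while most members lie within 1 unit of 0 on the x axis.

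Per kilobase of region, introns included, the control mean was 25.5 tags for Fzd2, 12.7 for Fzd5 and 3.01 for Fzd9, beside 2.90 for Lrp6 and 1.86 for Dkk2. These values do not rank the transcripts, since exons of the GENCODE M21 transcript come to 7.8% of the Lrp6 region and 3.9% of the Dkk2 region, while Fzd2 has 1 exon. Fzd2 (mm9 chromosome 11, 102466545 to 102469372), a receptor close in sequence to Fzd1 and Fzd7, had 54.55, 80.91 and 80.91 tags per 10000000 in controls 9, 10 and 12, 153.64 in knockout 13 and 28.18 in knockout 16. Fzd1 (mm9 chromosome 5, 4754239 to 4757816) had 20, 36.36 and 30 in the controls, 58.18 in knockout 13 and 8.18 in knockout 16. Fzd7 (mm9 chromosome 1, 59539791 to 59543799) had 32.73, 50 and 51.82, then 80.91 and 20. In each of these 3 genes library 13 was above every control and library 16 below every control. Their fitted log2 changes were -0.10 ± 0.58 (SE) for Fzd2, -0.31 ± 0.65 for Fzd1 and -0.12 ± 0.61 for Fzd7 (limma, adjusted p = 0.901, 0.718 and 0.889), near 0 because the 2 libraries lay on opposite sides.

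Fzd1 and Fzd7 moved alike in both knockout libraries, and Dkk2 was the antagonist with the highest level. Wnt11 was the ligand whose promoter holds CTTTGA, a form of the core site of TCF and LEF factors. These 4 members stand for the 3 groups, and their promoter sequences are shown. Each is the 250 bases before the start that RefSeq annotates (GRCm38.p6, a later build than the mm9 of the values), written 5′ to 3′ on the gene's strand, and none of the 4 overlaps an exon of GENCODE M21. Capitals mark CTTTGA or its reverse complement TCAAAG. This is only a form of the core of that site, and other forms were neither searched for nor marked. The Fzd1 window is chr5:4758217-4758466 (minus strand), that of Fzd7 chr1:59481897-59482146 (plus), that of Dkk2 chr3:132085042-132085291 (plus) and that of Wnt11 chr7:98834862-98835111 (plus).
Fzd1: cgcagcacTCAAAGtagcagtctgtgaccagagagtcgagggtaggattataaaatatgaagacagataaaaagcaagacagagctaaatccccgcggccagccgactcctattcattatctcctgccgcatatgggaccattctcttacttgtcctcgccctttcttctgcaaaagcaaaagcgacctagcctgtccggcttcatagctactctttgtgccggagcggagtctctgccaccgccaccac
Fzd7: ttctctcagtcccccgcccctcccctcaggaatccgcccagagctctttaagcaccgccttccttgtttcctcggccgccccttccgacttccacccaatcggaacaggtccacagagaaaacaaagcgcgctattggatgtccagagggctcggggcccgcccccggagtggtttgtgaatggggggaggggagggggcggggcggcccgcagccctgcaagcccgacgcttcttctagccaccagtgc
Dkk2: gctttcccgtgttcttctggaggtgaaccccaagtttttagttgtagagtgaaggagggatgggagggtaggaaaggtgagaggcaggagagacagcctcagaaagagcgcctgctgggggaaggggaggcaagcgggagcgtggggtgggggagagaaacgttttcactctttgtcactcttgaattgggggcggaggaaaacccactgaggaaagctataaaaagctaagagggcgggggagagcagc
Wnt11: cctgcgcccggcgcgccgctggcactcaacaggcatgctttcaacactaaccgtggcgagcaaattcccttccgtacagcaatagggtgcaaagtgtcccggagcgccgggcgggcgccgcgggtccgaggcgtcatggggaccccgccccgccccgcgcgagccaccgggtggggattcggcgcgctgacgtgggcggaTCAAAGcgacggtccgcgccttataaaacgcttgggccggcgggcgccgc
The match begins 242 bases before the start in Fzd1 and 50 in Wnt11, and CTTTGA is on neither strand of the other 2 windows. RefSeq's table matched 24 of the 38 members, and 3 of these (Dkk1, Fzd1 and Wnt11) held CTTTGA on either strand, as did 1843 of 14354 promoters of genes in the deposited table (12.8%). The median count of CG pairs per 250 bases was 22.5 for the members and 11 for all those promoters. Fzd1 had 12 CG pairs, Fzd7 17, Dkk2 7 and Wnt11 37. A match is a run of letters in this window and not a bound site.

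Fzd5 and Fzd8, receptors known from eye and forebrain development, had the lowest relative changes of the Frizzleds with a control mean of at least 20. Fzd5 (mm9 chromosome 1, 64777532 to 64783924) had 67.27, 102.73 and 72.73 in controls 9, 10 and 12, 96.36 in knockout 13 and 12.73 in knockout 16. Library 13 lay within the controls, and library 16, with 14 reads, held 0.157 times the control mean, the lowest ratio among the 20 members with a control mean of at least 20. The 95% Poisson interval of those reads is 6.96 to 21.35, below the lowest control and with the library's background of 9.56 inside it. Its log2 change of -1.14 ± 0.59 (SE) had the lowest adjusted p among the 12 receptors and did not pass (limma, 0.175). Its relative change was -2.11, with -0.53 in library 13 and -3.83 in library 16. Fzd8 had 24.55, 32.73 and 27.27 in the controls, 36.36 in knockout 13 and 8.18 in knockout 16, with relative log2 differences of -0.44 and -2.94 in the 2 knockout libraries. Hypothalamic markers were also below the median gene in both, at a median of -1.39 in library 13 and -2.55 in library 16 (-1.43 and -1.83 after background subtraction and TMM scaling), and their part in the Fzd5 and Fzd8 values was not tested.

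Fzd3 and Fzd6, which act in planar polarity and axon guidance, differ from the others in gene structure, with 7 exons each in GENCODE M21. The remaining 8 Frizzled genes have 1 or 2 exons, so that their regions hold little or no intron. Fzd3 (mm9 chromosome 14, 65811678 to 65880900) had 194.55, 315.45 and 289.09 in the controls, 465.45 in knockout 13 and 190 in knockout 16, just under the lowest control. Fzd6 had 63.64, 117.27 and 108.18, then 166.36 and 77.27, with library 16 within the controls. Fzd4, which also binds the ligand Norrin, had 21.82, 37.27 and 22.73, then 47.27 and 19.09, again little under the lowest control. In library 16 the median relative log2 difference was -1.64 for the 2 Frizzled genes with 7 exons and -2.56 for the 8 with 1 or 2.

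Fzd9 and Fzd10 were the 2 receptors with a control mean under 20. Fzd9 had 6.36, 3.64 and 1.82 in the controls, 10 in knockout 13 and 0.91 in knockout 16, where it rests on 1 read (95% interval 0.02 to 5.07). Fzd10 had 2.73, 3.64 and 3.64, then 3.64 and 8.18, and was the only Frizzled with its highest value in library 16. The intervals of its 9 reads there (3.74 to 15.53) and of its 4 reads in library 13 (0.99 to 9.31) overlap.

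Over the 10 Frizzled genes, library 13 was above every control in 8 and library 16 below every control in 8, with both in 7. Of all genes tested, 73.3% were above every control in library 13, 7.86% below every control in library 16 and 6.98% did both. Library 13 was therefore near the background share, while the count in library 16 was above it. The Frizzled median relative difference was 0.03 in library 13 and -2.46 in library 16. In library 16 the Spearman rho of level on length was the highest of the 5 libraries, and the regions of the 8 short Frizzled genes had little length to carry background. The part of that in the result was not tested, and the next values take background off.

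With background subtracted and the libraries scaled by TMM factors, library 13 came close to the controls and library 16 stayed below them. On that scale Fzd2 was at 83.37, 73.20 and 85.60 in controls 9, 10 and 12, 101.08 in knockout 13 and 23.88 in knockout 16. Fzd5 was at 101.65, 91.93 and 76.30, then 61.95 and 3.16, and Fzd3 at 273.75, 264.44 and 295.99, then 287.24 and 86.17. For these 3 genes the controls spanned a narrower range than before scaling, and library 16 lay below every control. Fzd9 and Fzd10 had a mean under 5 on this scale and were not kept for the fit. The 8 Frizzled genes kept were all below every control in library 16, as were 46.4% of the 14527 genes kept. Of all 10, library 13 was above every control in 2 (24.2% of the genes kept), within in 5 and below in 3 (20.8%). Summed over the 10 genes the level was 669.35 to 710.71 in the controls, 701.99 in knockout 13 and 181.51 in knockout 16.

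The same subtracted and scaled values were also fitted with library 16 as the only knockout, an alternative added after the data were seen, in which that library is assumed to vary like the controls. This fit called 9 of the 28 members that passed its filter, all lower: Fzd1, Fzd2, Fzd3, Fzd5, Fzd6, Fzd7, Fzd8, Lrp6 and Dkk2 (32.1%, beside 19.7% of all genes lower and 6.1% higher). The relative log2 change in this fit was -4.24 for Fzd5 and -1.27 for Dkk2. Of the 12 receptors, 2 were above background in library 16, Fzd2 and Fzd7. Before subtraction Fzd5 lay at 1.33 times background there and Dkk2 at 1.41 times, so their subtracted values are small remainders. The fit with library 13 as the only knockout called 0 of 27 members and 2 of 13389 genes, both lower (0.0149%). What these fits compare is 1 library with 3, not the genotypes.

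The co-receptor genes Lrp5 and Lrp6 went apart in library 16. Lrp6 (mm9 chromosome 6, 134396896 to 134516531), the member with the highest level, had 240, 426.36 and 374.55 in controls 9, 10 and 12, 586.36 in knockout 13 and 310.91 in knockout 16. Lrp5 (mm9 chromosome 19, 3585225 to 3686164) had 81.82, 158.18 and 138.18, then 193.64 and 300. Both were above every control in library 13, and in library 16 Lrp5 was above every control and Lrp6 within them. With background subtracted and TMM factors Lrp6 was at 324.04, 348.04 and 378.50 in the controls, 351.70 in knockout 13 and 131.52 in knockout 16, and Lrp5 at 86.47, 108.78 and 130.17, then 96.92 and 148.53. The log2 change was 0.34 ± 0.54 (SE) for Lrp6 and 0.98 ± 0.55 for Lrp5 (limma, adjusted p = 0.634 and 0.203).

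**Figure D3:**
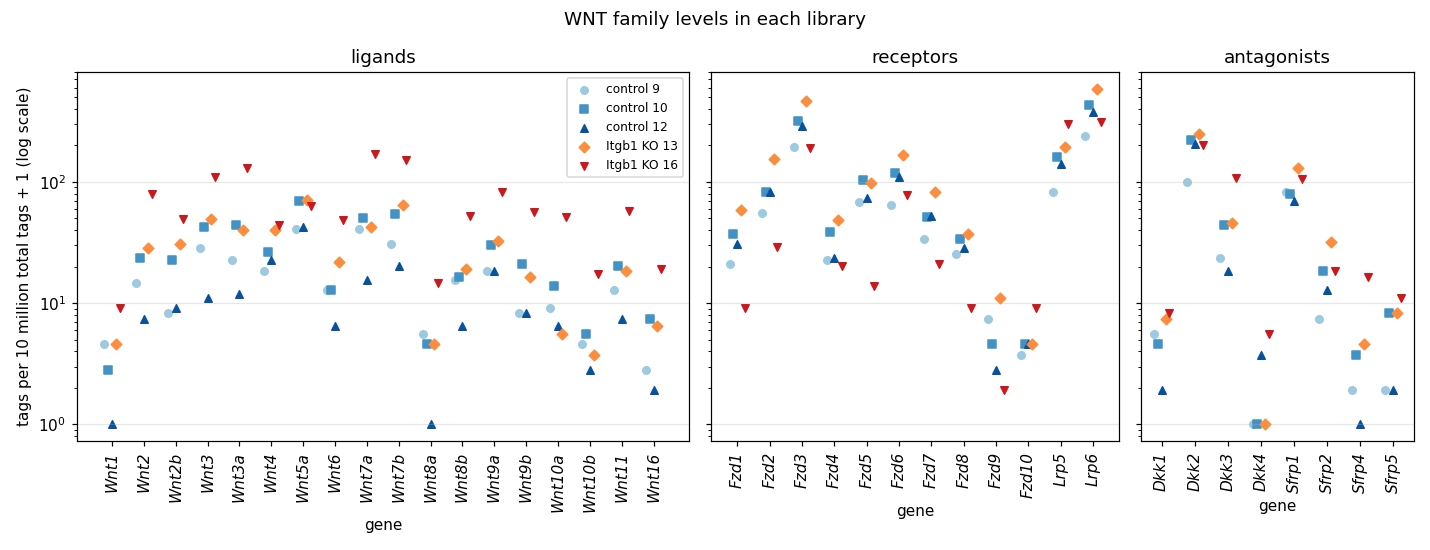
Level of each of the 38 members in each of the 5 libraries, as tags per 10000000 plus 1 on a log axis, with ligands, receptors and antagonists in separate panels. Library 16 holds the highest value of 17 of the 18 ligands and the lowest value of 8 of the 12 receptors.

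Wnt5a and Wnt4 were the ligands that stood clear of background in every control. Wnt5a (mm9 chromosome 14, 29319459 to 29338701), a ligand best known for signalling without beta-catenin, had 40, 69.09 and 41.82 tags per 10000000 in controls 9, 10 and 12, 70 in knockout 13 and 62.73 in knockout 16. Wnt4 (mm9 chromosome 4, 136834350 to 136855416), which is made in oral ectoderm and the pouch, had 17.27, 25.45 and 21.82, then 39.09 and 42.73. Wnt5a overlapped between the groups, whereas Wnt4 was above every control in both knockout libraries, as were 50.2% of all genes. Relative to the median gene the log2 changes were -0.53 for Wnt5a and -0.06 for Wnt4. With background subtracted and TMM factors Wnt5a was at 54.29, 56.45 and 41.28 in the controls, 40.43 in knockout 13 and 33.84 in knockout 16. It lay below every control in both, as did 8.36% of the genes kept, and library 13 missed the lowest control by less than 1 unit. Wnt4 was then at 18.35, 15.77 and 19.70, with 19.35 in knockout 13 and 11.18 in knockout 16.

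The other 5 ligands with a control mean of at least 20, Wnt3, Wnt3a, Wnt7a, Wnt7b and Wnt9a, can all act through beta-catenin, and each had its highest value in library 16. Wnt7a (mm9 chromosome 6, 91314377 to 91360963) had 40, 49.09 and 14.55 in controls 9, 10 and 12, 41.82 in knockout 13 and 168.18 in knockout 16. Wnt7b (mm9 chromosome 15, 85366267 to 85411851) had 30, 53.64 and 19.09, then 63.64 and 150. Control 12 was the lowest library for both, and library 16 held more than any control. Wnt3 had 27.27, 41.82 and 10 in the controls, 48.18 in knockout 13 and 109.09 in knockout 16. Wnt3a had 21.82, 42.73 and 10.91, then 39.09 and 130, and Wnt9a 17.27, 29.09 and 17.27, then 31.82 and 80.91. None of the 5 differed beyond the test's threshold: Wnt7b had a log2 change of 1.61 ± 0.60 (SE) and the lowest adjusted p of any member (limma, 0.0821), with a relative change of 0.64.

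Set against background, these 5 ligands lay between 1.48 and 4.27 times it over the 5 libraries, and between 1.69 and 2.41 times in library 16. Wnt7a lay at 3.33, 2.69 and 1.99 times background in controls 9, 10 and 12, at 1.90 times in library 13 and at 2.41 times in library 16. Wnt3a lay at 2.02, 2.60 and 1.66 times in the controls, then at 1.98 and 2.07. Wnt9a lay at 2.60, 2.87 and 4.27 times in the controls, then at 2.61 and 2.09, with control 12 the highest library. Summed over the 18 ligands the level was 182.71 in control 12, 281.83 in control 9, 450.92 in control 10, 482.73 in knockout 13 and 1187.26 in knockout 16, the same order as the background density (0.16, 0.26, 0.39, 0.47 and 1.50 tags per kilobase). After subtraction and scaling the ligand sum was 129.03 in control 12, 276.35 in control 9, 268.26 in control 10, then 194.44 and 581.01, still highest in library 16. On the deposited scale, for the 12 receptors the order was another, with 810.02 in control 9, 983.63 in library 16, 1200.92 in control 12, 1364.54 in control 10 and 1898.17 in library 13.

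The 11 ligands of lower level had control means of 1.82 to 14.2, and all 11 were highest in library 16, at 8.18 to 79.1. Library 16 was above every control in 17 of all 18 ligands, beside 72.9% of all genes. Wnt10a, a ligand of oral and dental epithelium, was the only member below every control in library 13 (1.46% of all genes): it had 8.18, 12.73 and 5.45 in controls 9, 10 and 12, 4.55 in knockout 13 and 50 in knockout 16. The 5 reads of library 13 have an interval of 1.48 to 10.61, which overlaps the controls. Wnt1 and Wnt8a had no tag in control 12, where a count of 0 has an upper bound of 3.35. No ligand was above background in library 16. Subtracting background did not bring library 16 to the controls. With TMM factors also, 12 of the 14 ligands kept were above every control there (37.3% of the genes kept). The filter for these 14 averaged over library 16 too, so a ligand high only there could pass through it. In the fit without library 16, 12 ligands passed. The median relative log2 difference of all 18, kept or not, was 1.88 in library 16, against -0.11 in library 13. Wnt2b was the only member above every control in both knockout libraries on that scale (7.08% of the genes kept), with 4.84, 14.22 and 6.02 in the controls, then 14.87 and 24.01. Markers of oral and surface epithelium, a source of several WNT ligands, had a median relative difference of 0.33 in library 13, where the ligand median was -0.05, and of 1.08 in library 16 (0.41 and 2.23 after subtraction and scaling). Their summed level was 182.73 to 342.71 in the controls, then 610.93 and 759.09. Esrp1, the list's most abundant gene in the controls, made up 404.55 and 178.18 of the knockout sums. Trp63, whose region spans 207524 bases, made up 134.55 and 404.55 of them. A region of that length carries much background. After subtraction and scaling Trp63 was at 93.79 in knockout 16, with a highest control of 13.74. Esrp1 was below the median gene in library 16, by a relative difference of -1.08. The median of the muscle markers was above the median gene too, at 0.44 in library 13 and 0.62 in library 16 (0.72 and 1.55 after subtraction and scaling). On the deposited scale Des (-1.33) and Myog (-0.68) lay below it in library 13 and Myf5 (-0.09) in library 16. Myf5, Myog and Myod1 had control means of only 0.30, 0.91 and 1.21. The part of either list in the ligand values was not tested.

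Among the antagonists Dkk2 and Sfrp1 were the members most abundant in the controls. Dkk2 (mm9 chromosome 3, 131749056 to 131843268), which binds the LRP co-receptors, had 99.09, 221.82 and 204.55 in controls 9, 10 and 12, 248.18 in knockout 13 and 199.09 in knockout 16. Sfrp1 (mm9 chromosome 8, 24522774 to 24560104), a soluble WNT-binding protein with a Frizzled-like domain, had 80.91, 79.09 and 68.18, then 129.09 and 105.45. Dkk3, a relative that does not act on the LRP co-receptors in the way of DKK1, had 22.73, 42.73 and 17.27, then 44.55 and 106.36. Sfrp1 was above every control in both knockout libraries, Dkk3 too, as were 50.2% of all genes, while Dkk2 in library 16 was within the controls. Relative to the median gene their log2 changes were -0.54 for Dkk2, -0.36 for Sfrp1 and 0.42 for Dkk3, and the adjusted p in limma were 0.553, 0.420 and 0.124.

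After background subtraction and TMM scaling the order changed for some of these. Dkk2 was at 115.91, 169.57 and 201.89 in controls 9, 10 and 12, 135.22 in knockout 13 and 57.96 in knockout 16, so library 16 went from within to below the controls. Sfrp1 was at 110.44, 59.12 and 66.31, then 73.99 and 49.45. Sfrp2, another WNT-binding protein, had 6.36, 17.27 and 11.82 on the deposited scale, with 30.91 in knockout 13 and 17.27 in knockout 16. It was the only antagonist that stayed above every control in library 13 on the subtracted scale, at 18.26 against a highest control of 13.25. The 4 remaining antagonists (Dkk1, Dkk4, Sfrp4 and Sfrp5) had control means of 0.91 to 3.03, and Dkk4 had no tag in controls 9 and 10 or in library 13.

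The wider pathway was read from 6 gene lists, chosen like the members with earlier results of these data known, and 0 genes of any list passed the limma test. The list labelled secretion held 3 genes, Wls, Porcn and Notum, and Notum is also on the list of beta-catenin target genes. Its median relative log2 change was -0.05, the value of Wls. Notum had a control mean of 4.54. Wls, the carrier that brings WNTs to the cell surface, had 87.27, 168.18 and 153.64 in controls 9, 10 and 12, 352.73 in knockout 13 and 176.36 in knockout 16, above every control in both. After subtraction and scaling it was at 97.41, 120.20 and 147.66, then 204.46 and 34.60, so library 16 turned from above to below the controls. Porcn, the enzyme that adds the lipid, had a relative change of 0.22. Of 12 other antagonists 7 lay above the median gene and 5 below, with Kremen1, a DKK receptor, at 0.15 and Frzb, an SFRP relative, at 0.15.

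R-spondins and their LGR receptors raise the number of Frizzleds at the membrane, and Znrf3, a ubiquitin ligase on the same list, removes them. In the fit of the deposited values 6 of the 7 genes measured, Znrf3 included, lay above the median gene, and Lgr4 below it. After subtraction and scaling Rspo2 (-0.44), Rspo3 (-1.47) and Lgr4 (-1.16) lay below the median gene in library 16. Rspo1 (2.14), Rspo4 (2.86), Lgr6 (2.51) and Znrf3 (0.13) lay above it there. Lgr4, an R-spondin receptor, had 258.18, 516.36 and 653.64 in controls 9, 10 and 12, 1067.27 in knockout 13 and 332.73 in knockout 16. Its highest value was in library 13 and library 16 was within the controls, the pattern of Lrp6. Znrf3 had 137.27, 237.27 and 270.91, then 427.27 and 427.27. Their relative log2 changes were -0.54 and 0.07.

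Intracellular transducers lay mostly below the median gene, 16 of 21 measured, with a median relative log2 change of -0.37, which was 0.08 in library 13 and -0.72 in library 16. Ctnnb1, the gene of beta-catenin, had 394.55, 650.91 and 676.36 in controls 9, 10 and 12, 954.55 in knockout 13 and 284.55 in knockout 16. It shared the Frizzled pattern, above every control in library 13 and below every control in library 16. Tcf7l2, a transcription factor that binds beta-catenin, had 318.18, 620.91 and 611.82, then 626.36 and 721.82. Their relative changes were -1.07 and -0.53 (limma, adjusted p = 0.896 and 0.542 for the change before the median is taken off).

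Genes that beta-catenin signalling is known to switch on had a median relative change of 0.15 over 13 tested, 8 above and 5 below the median gene. Axin2, the most widely used readout of the pathway, had 47.27, 85.45 and 56.36 in controls 9, 10 and 12, 108.18 in knockout 13 and 116.36 in knockout 16. It was above every control in both, and after subtraction and scaling it was at 61.40, 67.72 and 55.02, then 62.52 and 71.81. Relative to the median gene its log2 change was -0.10 (adjusted p = 0.275 in limma), and the subtracted value lay within the controls in library 13 and above them in library 16. Lef1 had 74.55, 114.55 and 90, then 147.27 and 293.64, with a relative change of 0.20. After subtraction and scaling Lef1 was at 70.77, 64.76 and 77.07, then 62.66 and 125.6. On that scale it was below every control in library 13 and above every control in library 16. The authors' deposited table of changes lists Lef1 with a log2 fold change of 1.25 and a p-value of 0.0033. Ccnd1, the cyclin D1 gene and second in level on this list, had 120.91, 187.27 and 180.91, then 235.45 and 60.91, and a relative change of -1.38.

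Receptors and polarity proteins of the beta-catenin-independent branch had a median relative change of -0.01 over 17 genes, 2 of them Fzd3 and Fzd6. Prickle1, a core polarity protein, had 213.64, 555.45 and 621.82 in controls 9, 10 and 12, 892.73 in knockout 13 and 380 in knockout 16. Prickle2 had 210, 425.45 and 304.55, then 504.55 and 787.27. On the deposited scale the 2 genes thus differed in library 16, where Prickle1 was within the controls and Prickle2 above them. After subtraction and scaling Prickle1 was at 292.65, 474.95 and 645.47 in the controls, then 562.44 and 235.68, below every control in library 16. Prickle2 was then at 191.85, 269.91 and 268.24, with 230.15 in knockout 13 and 285.96 in knockout 16, still above every control there. Daam2, a formin of this branch, was also in the authors' deposited table of changes, with a log2 fold change of 1.3.

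**Figure D4:**
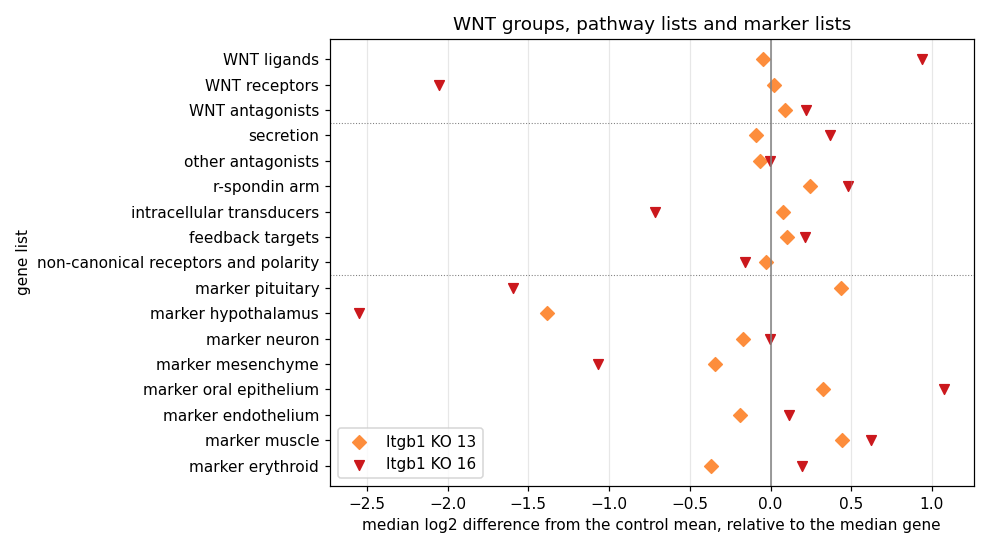
Median log2 difference from the control mean, relative to the median gene and on deposited values, for the 3 WNT groups, the 6 pathway lists and the 8 marker lists, with library 13 as diamonds and library 16 as triangles. The WNT receptors sit at 0.02 in library 13 and -2.06 in library 16, beside 0.44 and -1.60 for pituitary markers and -1.39 and -2.55 for hypothalamic markers.

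On the deposited scale markers of the pituitary, hypothalamus and mesenchyme had medians below that of all genes in library 16. Pituitary markers had a median relative difference of -1.60 there and 0.44 in library 13, hypothalamic markers -2.55 and -1.39, and mesenchymal markers -1.07 and -0.34. After background subtraction and TMM scaling the medians in library 16 were -0.67 for pituitary, -1.83 for hypothalamic and -0.28 for mesenchymal markers, beside -1.52 for the receptors. No pituitary marker was at 0 in any library, and their part in the receptor values was not tested. The receptor median in library 13 was 0.02 on the deposited scale. From these marker lists, the authors' deposited table of changes holds Lhx3, Six3 and Alx4, with log2 fold changes of 2.58, 1.09 and -0.68. Their relative changes in the limma fit had the opposite sign, at -0.78, -1.34 and 0.57. Before the median is taken off, the fitted changes were 0.19, -0.37 and 1.54, so that only Lhx3 had the authors' sign. The reason for this difference was not tested.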

How the data were processed

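RNA was measured in 3 control and 2 knockout pituitaries at embryonic day 12.5, which the labels call separate biological replicates. Ribosomal RNA was removed and ScriptSeq v2 was the library kit, per the labels' protocols. Bowtie2, HOMER, edgeR and the build mm9 are in the submitters' processing notes, with no roles or versions. The signal in the table of all genes was scaled by the authors to 10000000 tags a library, per the file headers. All regions carry a plus sign for strand, and the use of strand in counting is not stated in the labels or headers. The authors' deposited table of changes gives a log2 fold change, linear fold (ratio) columns, a p-value and a score per genotype without a unit, per the file headers.

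All values (100.00%) were whole multiples of 1 read within 0.01, at an implied total of 11000000 tags in every library. Recovered reads, Poisson intervals and the count tests rest on that total. Because the file holds normalized values, the test was limma (3.58.1, with trend) on log2(value + 1) over all genes with a mean of at least 1, Benjamini-Hochberg adjusted over that table (threshold 0.05). Such fold changes understate low genes. All 38 members passed the filter. Background per kilobase times region length was subtracted with a floor of 0, and the fits on subtracted and TMM-scaled values kept a mean of at least 5, which left 28 members. Alternatives were TMM factors, background subtraction, pseudocounts of 0.5 and 5, other filters, edgeR 4.0.16, DESeq2 1.42.0 and leaving out each library. Scripts were tested on simulated data. Intervals are exact Poisson at 95% and cover counting error only. Named genes were members with a control mean of at least 20 and the 2 highest genes of each pathway list, plus Axin2, Lef1, Wls and Frzb. Other genes were named, after their values were seen, for their place in a group or in the authors' table. The members and lists were chosen with earlier results of these data known.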

Additional observations from a re-analysis of the deposited data

How the results depend on the processing

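The count of 0 members called held under each alternative of scaling, background, pseudocount, filter and tool on all 5 libraries, and on leaving out each library. With background subtracted, TMM factors and no library 13 it was 9 (3725 genes), and with no library 16 it was 0 (2 genes), both fits added after the data were seen. DESeq2 called 25 genes, none a member. The median relative log2 change of the receptors was -0.64 with a pseudocount of 5, -0.57 with edgeR and -0.64 with DESeq2. Leaving out single libraries gave -2.057 (without 13) to 0.014 (without 16) for receptors and -0.051 (without 16) to 0.937 (without 13) for ligands. With background subtracted and TMM factors, the fit without library 13 gave 1.97 for ligands, -1.53 for receptors and -0.42 for antagonists, and that without library 16 gave -0.12 for ligands and 0.00 for receptors. Without library 16, 11 of the 20 members with a control mean of at least 20 changed the sign of their relative change. The cause was not tested. Members with few reads, such as Fzd9 and Wnt1, are limited by depth. No paired analysis or blocking by litter was made, because the sample annotation used here does not give the litter of each library and the groups share no replicate numbers.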
